A study of Homo sapiens with 12 samples.

Results

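SWI/SNF is a chromatin remodeller of many subunits, and the transcripts of 10 of them were followed through the knockdowns of CARM1 and of 4 genes of the NuRD complex. The 10 are SMARCA4 and SMARCA2, SMARCB1, SMARCC2, SMARCD1, SMARCE1, ARID1A, ARID1B, ARID2 and PBRM1. They were taken from a list of names, and each symbol was matched to 1 Ensembl identifier. They are 10 of the 60660 identifiers in the count tables, and all 10 are among the 12830 coding genes that were expressed highly enough to be tested. By the sample labels, RNA-seq was made from HEK293T, an established line derived from human embryonic kidney cells that carries the SV40 large T antigen. The paper's text names HEK293 cells for this experiment. The control group, siCTL, is labelled WT and received control siRNA. The other groups, siCARM1, siCHD4, siHDAC2, siGATAD2A and siKDM1A, are labelled as knock downs of the gene in their name and received siRNA against it. Each of the 6 groups has 2 libraries, all cells grew in the same medium, and siRNA was delivered by Lipofectamine. The methods give a single siRNA sequence for each target but CARM1, for which the one used in RNA-seq is not named, so effects of an siRNA and of the loss of its target cannot be told apart. The labels do not say that the libraries of a group came from separate cultures, so p-values measure the spread between these libraries, which may be technical.

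SWI/SNF uses the energy of ATP to slide or evict nucleosomes, and it is known for opening enhancers and promoters. Each complex holds a single ATPase, SMARCA4 (BRG1) or SMARCA2 (BRM), on a core of SMARCB1, SMARCC, SMARCD and SMARCE1 subunits. ARID1A or ARID1B defines the canonical BAF form, ARID2 and PBRM1 define the PBAF form, and a non-canonical form is built around BRD9 and lacks SMARCB1 and SMARCE1. NuRD is another ATP-dependent remodeller, with CHD4 as its motor, HDAC2 as a histone deacetylase and GATAD2A as a bridge between its parts. KDM1A, a histone demethylase, can associate with it. CARM1 methylates arginines, and among its known substrates is the SWI/SNF subunit SMARCC1. Here only transcripts were measured, neither proteins nor assembled complexes.

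The total on genes lay between 19308315 and 28648657 read pairs per library. In each knockdown the targeted gene was lower than in siCTL, with log2 fold changes from −2.59 for KDM1A to −0.54 for CHD4, whose transcript was left at 68.9% of its siCTL level. Targeted genes also differed in other knockdowns. GATAD2A was higher in siCHD4 (log2 fold change 1.09, 2.13-fold), and CHD4 was lower in siCARM1 (−0.32). Between siCHD4 and siGATAD2A, the GATAD2A transcript thus differed 7.12-fold. Of 5 markers of HEK293 cells, NEFL, LIN28B and GAL were above 0.5 FPKM (counts divided by exonic length and by the library total), with a summed group mean of 66.1 to 91.9 FPKM for the list, while PAX2 (0.0526 to 0.316) and NEFM (0.0108 to 0.169) were below it. Markers of other tissues were near 0 for leukocytes (0 of 3 above 0.5 FPKM, summed 0.160 to 0.574), endothelium (0 of 1, 0.0180 to 0.0667), hepatocytes (0 of 1, 0.00571 to 0.0361) and skeletal muscle (0 of 2, 0.140 to 0.461, with MYH1 at 0). Of the fibroblast markers 1 of 3 passed, COL1A1 at 8.42 to 12.9 FPKM, while DCN was at 0 to 0.00270.

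The promoters of 3 of the 10 genes are shown, SMARCD1 because its calls against siCTL held under every alternative, and SMARCA4 and SMARCA2 because the alternative ATPases are compared below. The sequences are the 250 bases before the RefSeq start (GRCh38.p14), read 5′ to 3′ on the strand of the gene, and capitals mark the GC box GGGCGG on either strand.
SMARCD1: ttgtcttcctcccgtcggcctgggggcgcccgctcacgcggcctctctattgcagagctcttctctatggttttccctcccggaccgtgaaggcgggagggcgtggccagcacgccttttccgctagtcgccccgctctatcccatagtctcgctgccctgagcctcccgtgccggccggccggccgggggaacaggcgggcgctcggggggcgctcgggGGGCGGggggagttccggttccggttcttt
SMARCA4: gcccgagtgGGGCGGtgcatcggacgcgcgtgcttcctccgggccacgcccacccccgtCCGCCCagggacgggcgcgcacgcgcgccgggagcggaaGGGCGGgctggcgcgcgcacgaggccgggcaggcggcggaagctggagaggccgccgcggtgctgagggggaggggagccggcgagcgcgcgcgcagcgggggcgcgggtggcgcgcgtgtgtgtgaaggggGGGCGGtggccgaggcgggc
SMARCA2: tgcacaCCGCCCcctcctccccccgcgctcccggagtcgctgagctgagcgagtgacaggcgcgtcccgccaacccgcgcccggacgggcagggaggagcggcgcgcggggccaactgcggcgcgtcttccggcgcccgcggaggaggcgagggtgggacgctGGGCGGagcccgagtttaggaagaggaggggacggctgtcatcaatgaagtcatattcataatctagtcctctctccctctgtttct
The SMARCD1 window (chr12:50085092-50085341, + strand) is 70.4% G and C, holds 28 CpG and 1 GC box. The first of 2 SMARCA4 windows (chr19:10960780-10961029, + strand) is 82.4% G and C, with 44 CpG and 4 GC boxes, and the first of 4 SMARCA2 windows (chr9:2015097-2015346, + strand) is 68.8%, with 29 CpG and 2 GC boxes. The median of 35116 RefSeq windows of this length is 58.0% and 11 CpG, below all 3 windows shown. The windows of these genes not shown were below it in both, with 55.6% and 4 CpG for the second of SMARCA4 and 0 to 8 CpG for the others of SMARCA2. RefSeq entries were found for 8 of the 10 genes, with 14 windows, and not for ARID2 and SMARCC2. Of the 14 windows, 7 held a GC box against 42.6% of all windows, 4 held CCAAT against 32%, and 1 held the ETS core CCGGAAG against 8.52%, each searched on both strands. These matches describe letters and not bound sites.

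All 10 transcripts were present in every library, with 307 (SMARCE1) to 10214 (SMARCA4) read pairs. Levels of 1 gene are compared below as CPM, counts scaled to a common library size with TMM factors. Compared between genes per length, as FPKM over the canonical transcript in siCTL, SMARCA4 was the highest of the 10 at 57.5 and SMARCD1 the next at 37.8. SMARCC2 (29.0), SMARCB1 (22.1), ARID1A (21.8), ARID2 (17.2), PBRM1 (14.5), SMARCA2 (12.2) and ARID1B (11.1) followed. SMARCE1 came last at 3.42 FPKM. In the annotation used here, 51.5% of the bases of its canonical transcript also belong to ENSG00000264058 on the same strand. Read pairs on both genes are counted on neither, so its level may be understated. The annotation behind the counts is not given, and the number of read pairs lost was not tested. Such overlap covered 3.75% of SMARCC2, shared with ENSG00000258199, and none of the other 8 genes.

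The knockdowns left most of these transcripts within a narrow range. Between the highest and the lowest of the 6 group means, the 10 genes spanned from 0.19 (SMARCB1) to 0.46 (SMARCE1) on the log2 CPM scale, with a median of 0.28. The median over all genes tested was 0.52, and 0 of the 10 exceeded it. The 10 also had more counts, with a median of 136 CPM against 39.0 over all genes tested, and the part of this in their narrower range was not tested. These small differences were still larger than the spread between libraries, for any difference among the groups was found by edgeR's quasi-likelihood F test in 10 of 10 genes at an adjusted p of 0.05 or less. That test was passed by 91.1% of all genes tested, so passing it does not mark out the subunits. A call, lower or higher, required a fold of at least 1.2 together with a p of 0.05 or less after Benjamini-Hochberg adjustment over all genes tested.

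**Figure D1:**
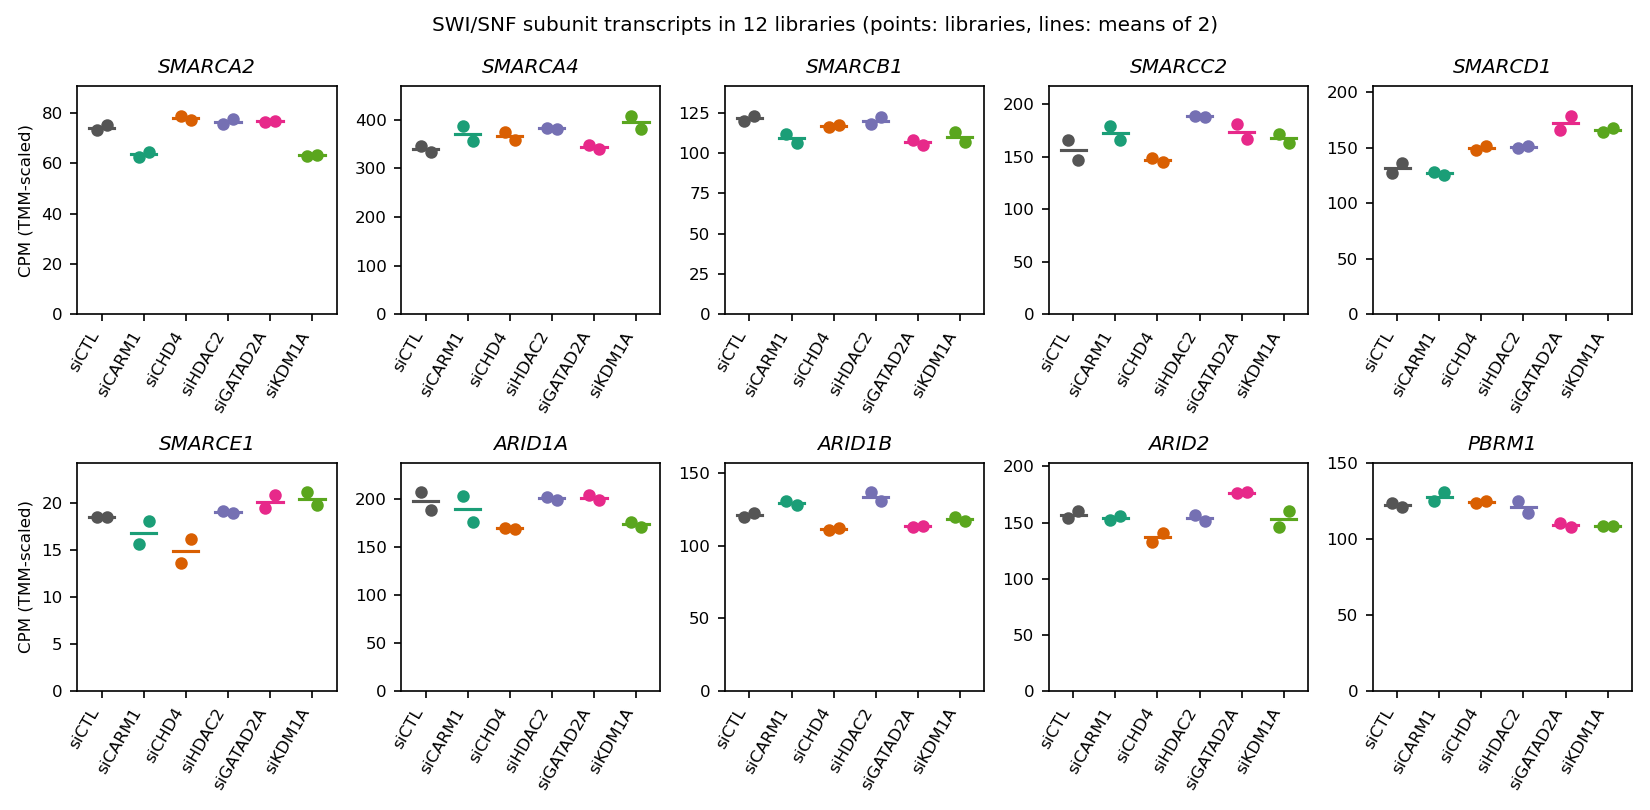
Transcript levels of the 10 SWI/SNF subunits in CPM (vertical axes, each from 0), with 1 point per library, a line at the mean of the 2 libraries and 1 column per siRNA group. SMARCD1 is highest in siGATAD2A and siKDM1A, SMARCE1 is lowest in siCHD4, and SMARCA2 is lowest in siCARM1 and siKDM1A.

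Compared with siCTL, 4 of the 50 values (10 genes in 5 knockdowns) were called, 1 lower and 3 higher, in 3 genes. SMARCD1 was higher in siGATAD2A and siKDM1A, SMARCC2 was higher in siHDAC2, and SMARCE1 was lower in siCHD4. In siCARM1, 0 of 10 were lower and 0 higher, where 14.5% and 14.9% of all genes tested were called. There DESeq2 also called 0 of them, and 4 had an unadjusted p under 0.05 in edgeR. Counts without regard to strand gave 1 call, and an offset fitted over all genes in each library gave 1 call for GC content and 3 for exonic length. In siCHD4 the counts were 1 lower and 0 higher, against 24.9% and 24.0%. The corresponding background was 9.00% and 10.6% in siHDAC2 (0 lower, 1 higher), 18.2% and 15.7% in siGATAD2A (0 lower, 1 higher) and 11.5% and 14.2% in siKDM1A (0 lower, 1 higher). By the adjusted p alone, 25 of the 50 values passed, 12 lower and 13 higher. They were 6 in siCHD4 (65.7% of all genes tested), 6 in siKDM1A (42.3%), 5 in siGATAD2A (51.5%), 4 in siCARM1 (46.7%) and 4 in siHDAC2 (35.4%). The median size of the log2 fold change was 0.11 in both siCARM1 and siCHD4, where it was 0.18 and 0.28 over all genes tested. For siHDAC2 it was 0.04 (0.14 over all genes), for siGATAD2A 0.13 (0.20) and for siKDM1A 0.16 (0.16). The 95% interval of a value reached at most 0.20 to either side. In 37 of the 50 values the knockdown libraries did not overlap those of siCTL. With 2 libraries against 2, an exact two-sided test cannot give a p under 0.333, even without overlap. The share of all genes tested without such overlap was not computed, so the 37 are not read as a result about these genes.

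**Figure D2:**
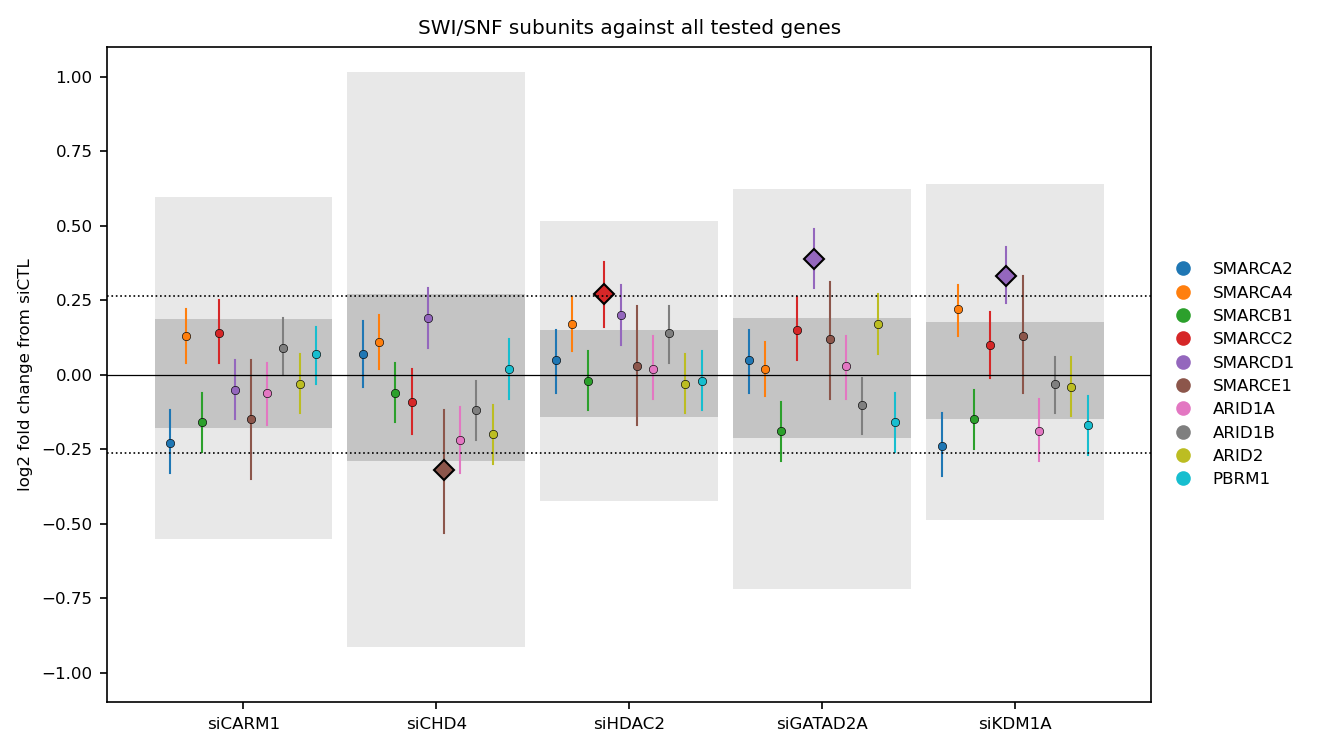
Log2 fold change from siCTL (vertical axis) of the 10 subunits in each knockdown, with 95% intervals from edgeR, over the band that holds the middle 50% (dark) and 90% (light) of all 12830 genes. Diamonds mark the 4 called values and dotted lines a fold of 1.2, which the other values do not reach.

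The clearest change was in SMARCD1 (ENSG00000066117, GRCh37 chromosome 12, 50478983 to 50494490), an adaptor through which transcription factors contact the complex. It was measured at 127 and 136 CPM in siCTL, 166 and 179 in siGATAD2A, and 164 and 168 in siKDM1A. All 4 of those knockdown libraries were above both siCTL libraries. The log2 fold change was 0.39 in siGATAD2A (1.31-fold, SE 0.0477, edgeR adjusted p = 4.4e-08) and 0.33 in siKDM1A (1.26-fold, SE 0.0478, edgeR adjusted p = 1.2e-06). Levels in between were seen in siCHD4 (148 and 152 CPM, log2 fold change 0.19) and siHDAC2 (150 and 152 CPM, 0.20), which were past the adjusted p and short of the fold minimum. In siCARM1 the libraries had 128 and 126 CPM, within 0.05 of siCTL on the log2 scale (edgeR adjusted p = 0.400). Thus SMARCD1 was higher in each of the 4 NuRD knockdowns by the adjusted p alone, and not in siCARM1. The calls in siGATAD2A and siKDM1A held under every alternative tried.

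SMARCC2 (ENSG00000139613, chromosome 12, 56556143 to 56583351), a scaffold of the core, had 166 and 147 CPM in siCTL and 189 and 188 in siHDAC2. The siHDAC2 libraries were the highest of all 12, and the siCTL libraries were further apart than those of any other group. The log2 fold change was 0.27 (1.21-fold, SE 0.0524, edgeR adjusted p = 1.5e-04), just above the fold minimum. It fell short of that minimum without siCTL replicate 2 (0.18), without siHDAC2 replicate 1 (0.26), with no filter on low genes (0.26) and with an offset for GC content (0.25) or exonic length (0.21). In the other knockdowns its log2 fold changes were 0.14 in siCARM1, 0.15 in siGATAD2A, 0.10 in siKDM1A and −0.09 in siCHD4.

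SMARCE1 (ENSG00000073584, chromosome 17, 38781214 to 38804906), which binds DNA through an HMG domain, had the lowest counts of the 10, with 307 to 510 read pairs per library. In siCTL both libraries were at 18.6 CPM, and in siCHD4 they were at 13.6 and 16.2. The groups did not overlap, but replicate 1 of siCHD4 was well below replicate 2. The log2 fold change was −0.32 (SE 0.101, edgeR adjusted p = 0.00621), a 1.25-fold lower level. The call was lost without siCHD4 replicate 1 (−0.21, adjusted p = 0.13) and with an offset for GC content (−0.16, adjusted p = 0.13). The exons of SMARCE1 are 38.2% G and C, the lowest share of the 10, and the part of GC content in this result beyond that offset was not tested.

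The ATPases differed in direction in siCARM1 and siKDM1A. SMARCA2 (ENSG00000080503, chromosome 9, 1980290 to 2193624) had 73.2 and 75.2 CPM in siCTL, 62.5 and 64.6 in siCARM1 and 63.0 and 63.2 in siKDM1A. The 4 knockdown libraries lay below every library of the other 4 groups, which were between 73.2 and 78.9 CPM. The log2 fold changes were −0.23 in siCARM1 (edgeR adjusted p = 8.1e-04) and −0.24 in siKDM1A (6.4e-04), folds of 1.17 and 1.18 that stayed just under the minimum of 1.2. Both passed it with an offset for GC content (−0.27 in each) or exonic length (−0.34 and −0.27), and the value in siCARM1 also when counted without regard to strand (−0.27). SMARCA4 (ENSG00000127616, chromosome 19, 11071608 to 11190102) lay on the other side of siCTL, with 346 and 333 CPM in siCTL, 386 and 357 in siCARM1 and 408 and 381 in siKDM1A. Its log2 fold change was 0.22 in siKDM1A (SE 0.0426, edgeR adjusted p = 1.2e-04), 0.17 in siHDAC2, 0.13 in siCARM1, 0.11 in siCHD4 and 0.02 in siGATAD2A. None of the 5 reached the fold minimum, which the value in siKDM1A passed without siKDM1A replicate 2 (0.27).

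The balance of the ATPases was measured within each library, where scaling between libraries has no part. SMARCA4 made up 82.9% and 82.0% of the summed FPKM of both genes in siCTL, over canonical transcript lengths. The share was 86.4% and 85.1% in siCARM1 and 87.0% and 86.2% in siKDM1A, above all libraries of the other 4 groups. Those of siCHD4 (83.0% and 82.7%), siHDAC2 (83.9% and 83.5%) and siGATAD2A (82.4% and 82.0%) lay close to siCTL. The group means spanned 4.36 percentage points, or 3.86 with the merged exons of each gene as its length. These shares are given as a description and were not tested. No exact stretch of 50 bases within a merged exon is shared by both genes. Stretches across exon junctions and inexact matches were not compared, so whether reads were exchanged between the genes was not tested.

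ARID1A and ARID1B, the alternative DNA-binding subunits of canonical BAF, were called in no knockdown. ARID1A (ENSG00000117713, chromosome 1, 27019727 to 27108595) had 207 and 189 CPM in siCTL, and was lowest in siCHD4 (170 and 169) and siKDM1A (176 and 171). Its log2 fold changes there were −0.22 and −0.19, both past the adjusted p. The value in siCHD4 passed the fold minimum without siCTL replicate 2 (−0.29). ARID1B (ENSG00000049618, chromosome 6, 157097154 to 157531913) had 120 and 123 CPM in siCTL. It was highest in siHDAC2 (137 and 131, log2 fold change 0.14) and lowest in siCHD4 (111 and 112, −0.12). ARID1A made up 67.3% and 64.9% of the pair in siCTL by canonical length. In siGATAD2A its share was 68.5% and 67.7%, the highest of the 6 groups, and the lowest group mean was 63.6% in siCARM1 (64.9% and 62.4%). Both siGATAD2A libraries lay above all others, while siCARM1 and siCTL met at 64.9%. These shares were not tested either.

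**Figure D3:**
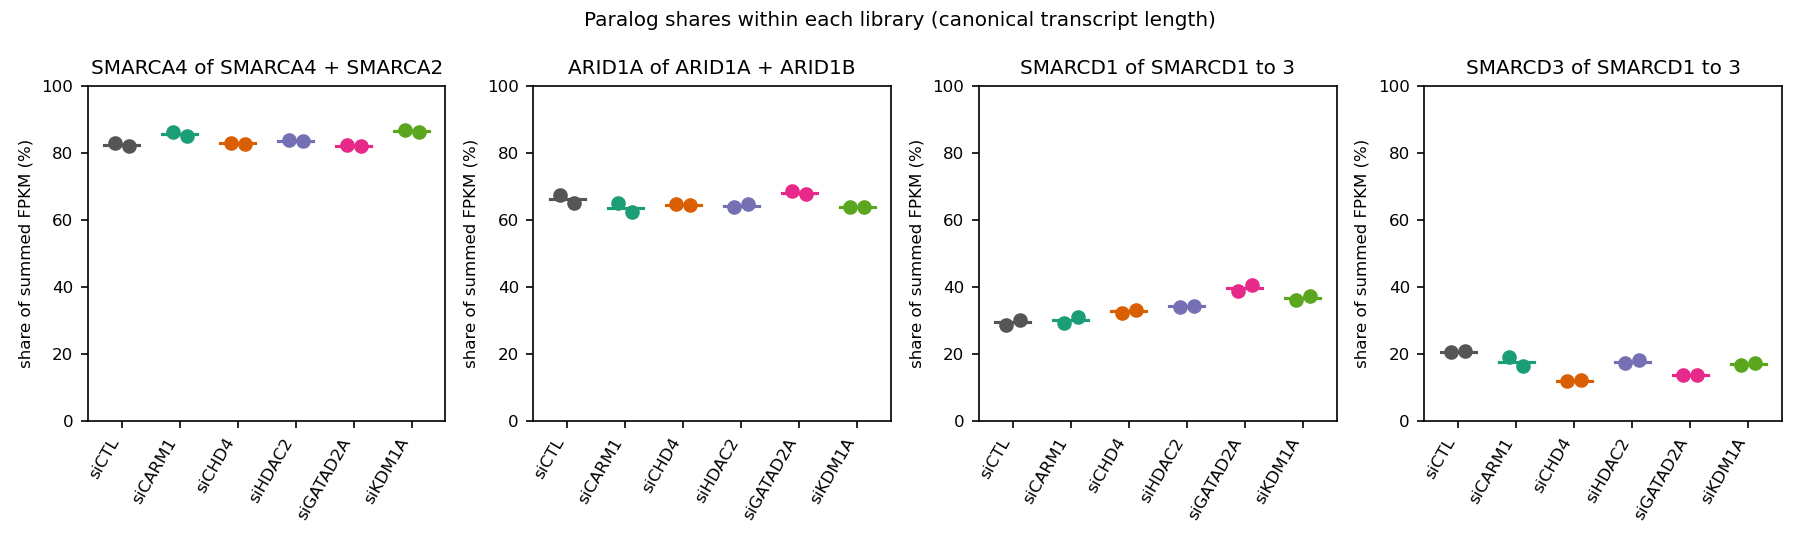
Share of 1 paralog in the summed FPKM of its family (vertical axes, percent, canonical transcript length), with 1 point per library and a line at the mean of the 2. SMARCA4 is highest in siKDM1A and siCARM1, SMARCD1 has means of 29.4% in siCTL and 39.7% in siGATAD2A, and SMARCD3 is lowest in siCHD4 at 11.9% and 12.1%.

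Of the subunits that define PBAF, ARID2 (ENSG00000189079, chromosome 12, 46123489 to 46301823) had 154 and 160 CPM in siCTL. It was 133 and 141 CPM in siCHD4 (log2 fold change −0.20) and 176 and 177 in siGATAD2A (0.17). Neither value reached the fold minimum. They lay on opposite sides of siCTL, and no library of either group overlapped it, which was not compared with all genes tested. PBRM1 (ENSG00000163939, chromosome 3, 52579368 to 52719933), which reads acetylated histones through its bromodomains, had 124 and 121 CPM in siCTL. It was at 111 and 108 in siGATAD2A (−0.16) and 109 and 109 in siKDM1A (−0.17), and between 117 and 131 in the other knockdowns. SMARCB1 (ENSG00000099956, chromosome 22, 24129118 to 24180196), a core subunit that is lost in rhabdoid tumours, was the steadiest of the 10. It had 120 and 123 CPM in siCTL, 112 and 106 in siCARM1 (−0.16), 108 and 105 in siGATAD2A (−0.19) and 113 and 107 in siKDM1A (−0.15). In siCARM1, an offset for exonic length carried both SMARCB1 and SMARCE1 past the fold minimum, each at −0.26.

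The knockdowns were next compared with each other, which does not involve siCTL. Of 100 values, 15 were called, in 5 of the 10 genes. SMARCA2 gave 6 of them, being lower in siCARM1 than in siCHD4 (log2 difference −0.30), siHDAC2 (−0.27) and siGATAD2A (−0.27), and lower in siKDM1A than in the same 3 groups by 0.31, 0.28 and 0.28. SMARCE1 gave 5, lower in siCHD4 than in siHDAC2 (−0.36), siGATAD2A (−0.44) and siKDM1A (−0.46), and lower in siCARM1 than in siGATAD2A (−0.26) and siKDM1A (−0.28). SMARCD1 was lower in siCARM1 than in siGATAD2A (−0.44, SE 0.0473, edgeR adjusted p = 3.6e-09) and siKDM1A (−0.39, SE 0.0474, edgeR adjusted p = 1.1e-07). Against siCHD4 (−0.24) and siHDAC2 (−0.25) it was lower in siCARM1 past the adjusted p only. SMARCC2 was lower in siCHD4 than in siHDAC2 (−0.36), and ARID2 was lower in siCHD4 than in siGATAD2A (−0.37, SE 0.0479, edgeR adjusted p = 8.7e-08).

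Set against all genes tested, these counts were at or below the background in each comparison. For siCARM1, 1 of 10 was called against siCHD4 (47.7% of all genes tested), 1 against siHDAC2 (19.3%), 3 against siGATAD2A (33.8%) and 2 against siKDM1A (21.0%). For siCHD4, 2 were called against siHDAC2 (48.8%), 2 against siGATAD2A (44.8%) and 2 against siKDM1A (47.7%). Between siHDAC2 and siGATAD2A 0 were called (29.5%), also with DESeq2, and 7 had an unadjusted p under 0.05 in edgeR. Calls numbered 1 between siHDAC2 and siKDM1A (14.3%) and 1 between siGATAD2A and siKDM1A (32.1%). Of the 15 calls, 7 held under every alternative. These were both of SMARCD1, that of SMARCC2, SMARCE1 in siCHD4 against siGATAD2A and siKDM1A, and SMARCA2 in siCHD4 against siCARM1 and siKDM1A.

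The other 8 calls were lost in at least 1 alternative. SMARCA2 in siCARM1 was at −0.25 against siHDAC2 and −0.25 against siGATAD2A without siCARM1 replicate 1, and at −0.25 against siHDAC2 without siHDAC2 replicate 2. SMARCA2 in siHDAC2 against siKDM1A was at 0.26 without siHDAC2 replicate 2 and 0.21 with the length offset, which also took siGATAD2A against siKDM1A to 0.25. SMARCE1 in siCARM1 was at −0.15 against siGATAD2A and −0.17 against siKDM1A without siCARM1 replicate 1, at −0.21 against siGATAD2A without siGATAD2A replicate 2 and at −0.23 against siKDM1A without siKDM1A replicate 1. With DESeq2 these values of SMARCE1 were −0.26 (adjusted p = 0.057) and −0.28 (adjusted p = 0.059). The first was also short of the fold minimum without regard to strand (−0.25) and with genes above an FPKM of 1 (−0.26). This last value and the called one are the same when rounded. SMARCE1 in siCHD4 against siHDAC2 was at −0.24 without siCHD4 replicate 1 and −0.19 with the GC offset, under which ARID2 in siCHD4 against siGATAD2A was at −0.25. Some uncalled values passed the fold minimum in an alternative. With the GC offset these were PBRM1 in siCHD4 against siKDM1A (0.30) and SMARCC2 in siCARM1 against siCHD4 (0.27). ARID1A in siCHD4 against siHDAC2 (−0.28) and siGATAD2A (−0.27) and ARID2 in siCARM1 against siGATAD2A (−0.27) also passed it there. ARID1B in siCHD4 against siHDAC2 passed with no filter on low genes (−0.27).

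The remaining subunits of the complexes gave a wider picture. Of 19 other subunits, 17 were tested, and of their 85 values against siCTL 18 were called, 8 lower and 10 higher. By knockdown, 3 were lower and 2 higher in siCARM1, 1 and 3 in siCHD4, 1 and 1 in siHDAC2, 2 and 2 in siGATAD2A, and 1 and 2 in siKDM1A. Called in either direction were thus 29.4% of the 17 in siCARM1, 23.5% in siCHD4 and 11.8% in siHDAC2, and 23.5% in siGATAD2A and 17.6% in siKDM1A. For all genes tested the lower and higher shares are given apart, and both together are the background of these values. They were 14.5% lower and 14.9% higher in siCARM1, 24.9% and 24.0% in siCHD4, and 9.00% and 10.6% in siHDAC2. In siGATAD2A they were 18.2% and 15.7%, and in siKDM1A 11.5% and 14.2%. The median range of these 17 over the groups was 0.37 on the log2 scale, between that of the 10 subunits above and that of all genes. The change of largest size was in a paralog of SMARCD1. SMARCD3, known from cardiac and muscle development, had 53.1 and 54.1 CPM in siCTL, 31.8 and 32.2 in siCHD4, 34.0 and 34.6 in siGATAD2A, and 48.1 and 38.7 in siCARM1. Its log2 fold change was −0.74 in siCHD4 (SE 0.0759, edgeR adjusted p = 5.6e-10), −0.65 in siGATAD2A (SE 0.0751, 1.7e-08) and −0.29 in siCARM1 (SE 0.0731, 0.00133). Values of −0.25 in siHDAC2 and −0.26 in siKDM1A were just short of the fold minimum. The first passed it without regard to strand (−0.30) and without siHDAC2 replicate 2 (−0.29), and the second in several alternatives, at up to −0.28 without siKDM1A replicate 2. The call in siCARM1 was lost without siCARM1 replicate 2 (−0.16) and with the GC offset (−0.19).

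SMARCD1 and SMARCD3 thus moved in opposite directions in siGATAD2A, while SMARCD2, the third interchangeable subunit of this position, was called in no knockdown, with log2 fold changes from −0.13 to 0.18. By canonical length, SMARCD1 made up 29.4% of the 3 in siCTL (means of 2 libraries). It made up 39.7% in siGATAD2A, 36.7% in siKDM1A, 34.2% in siHDAC2, 32.8% in siCHD4 and 30.1% in siCARM1. The share of SMARCD3 was 20.6% and 20.7% in the siCTL libraries and 11.9% and 12.1% in those of siCHD4, with means of 13.6% in siGATAD2A and 17.0% to 17.6% in the others. These shares were computed after the levels had been seen and were not tested.

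SMARCC1, the partner of SMARCC2 in the scaffold, was higher in siCARM1 and siKDM1A. It had 195 and 195 CPM in siCTL, 246 and 259 in siCARM1, and 248 and 249 in siKDM1A. The log2 fold change was 0.37 in siCARM1 (SE 0.0420, edgeR adjusted p = 1.4e-08) and 0.35 in siKDM1A (SE 0.0421, 5.3e-08), and these calls held under every alternative. In siHDAC2 (0.24), siGATAD2A (0.23) and siCHD4 (0.16) it was past the adjusted p only. SMARCC1 made up 48.6% and 51.4% of the pair with SMARCC2 in the siCTL libraries by canonical length. The mean was 54.4% in siKDM1A, 54.2% in siCHD4, 54.0% in siCARM1, 51.4% in siGATAD2A and 49.4% in siHDAC2.

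BCL7B, a small accessory subunit, was called higher in 3 knockdowns, from 16.7 and 14.3 CPM in siCTL to 20.1 and 17.3 in siCARM1 (log2 fold change 0.28), 20.8 and 18.6 in siCHD4 (0.35) and 23.5 and 25.3 in siGATAD2A (0.66, SE 0.105, edgeR adjusted p = 4.0e-06). The first of these calls was lost with DESeq2 (0.27, adjusted p = 0.079) and without siCARM1 replicate 1 (0.16), the second without siCHD4 replicate 1 (0.26), and both without siCTL replicate 2 (0.17 and 0.24). Of the subunits restricted to certain lineages, ACTL6B, the neuronal counterpart of ACTL6A, had 0 counts in 10 of 12 libraries and 1 in each of the siGATAD2A libraries. DPF3 had 19 to 47 counts, and neither was tested. DPF1, known from neurons, was lower in siCARM1 (−0.39, edgeR adjusted p = 0.00185) and siHDAC2 (−0.33, adjusted p = 0.00962). Both values of DPF1 were −0.25 with the GC offset, short of the fold minimum. The call in siHDAC2 was also lost without siCTL replicate 2 (−0.31) and without siHDAC2 replicate 2 (−0.34). These last values still passed the fold minimum and fell short on the adjusted p. SS18L1, another neuronal subunit, was lower in siCARM1 (−0.37, SE 0.0769, edgeR adjusted p = 2.2e-04). In siCHD4 it was at −0.18, past the adjusted p (0.0409 from edgeR) and short of the fold minimum.

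Some further subunits are named after their values were seen. PHF10, a subunit of PBAF, was higher in siHDAC2 (113 and 112 CPM against 89.9 and 89.7 in siCTL, log2 fold change 0.32) and lower in siKDM1A (66.7 and 69.8 CPM, −0.40). BCL7A, a relative of BCL7B, was higher in siGATAD2A (89.7 and 93.3 CPM against 61.6 and 66.0 in siCTL, 0.52) and in siKDM1A (0.27). The call of BCL7A in siKDM1A was lost without siCTL replicate 1 or siKDM1A replicate 1 (0.22 each), with no filter on low genes (0.26) and with the length offset (0.25). BRD9, the mark of the non-canonical form, was higher in siCHD4 (0.30), and short of the fold minimum without siCHD4 replicate 1 (0.25). ACTL6A, an actin-related subunit, was lower in siGATAD2A (−0.30), and at −0.26 without siCTL replicate 2 or siGATAD2A replicate 1. ACTB, a subunit that is also the actin of the cytoskeleton, was higher in siCHD4 (0.55). The other 6 tested subunits (DPF2, BRD7, BICRA, BICRAL, BCL7C and SS18) were called in no knockdown. DPF2 passed the fold minimum in siCHD4 with the GC (−0.28) and length (−0.26) offsets, and BICRA in siGATAD2A with the GC offset (0.31). Without siCTL replicate 1, BRD7 passed it in siCHD4 (0.29), siHDAC2 (0.35) and siGATAD2A (0.34), and BICRA in siGATAD2A (0.36). BICRAL and BCL7C passed it only with a library of siHDAC2 or siGATAD2A left out.

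**Figure D4:**
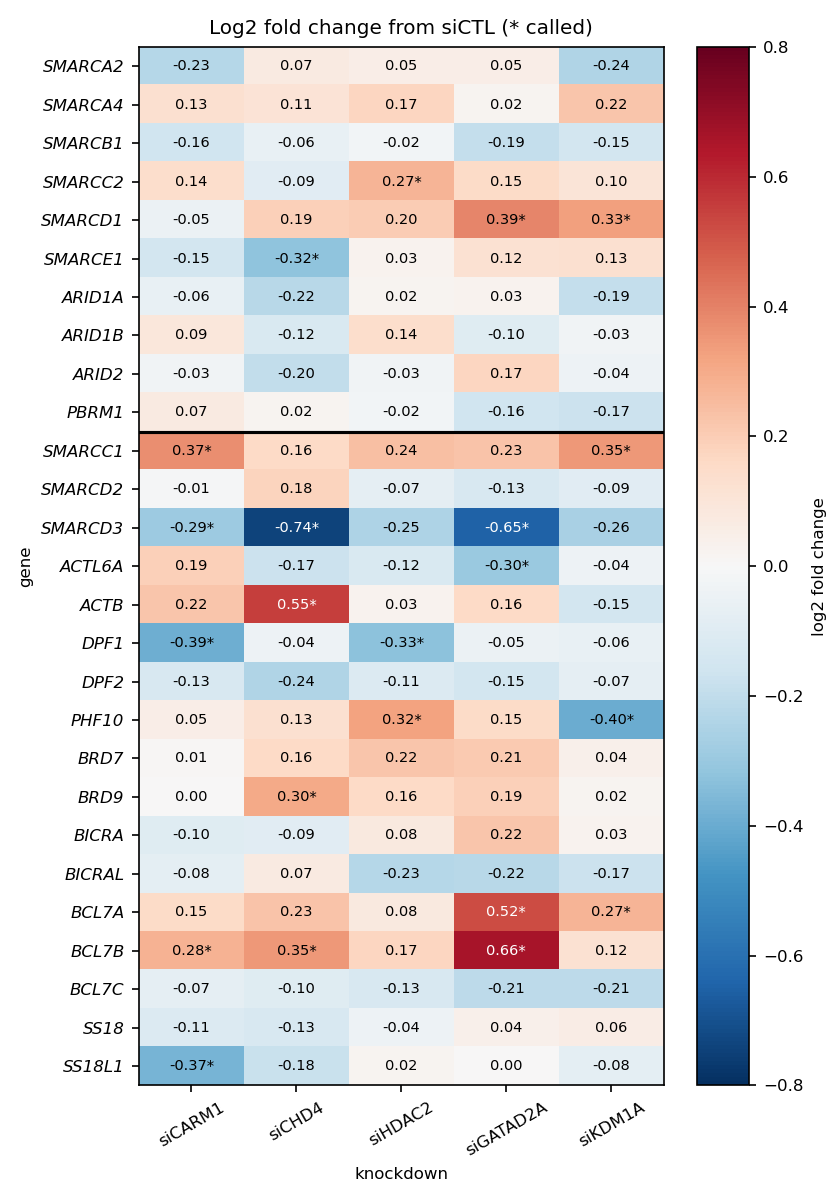
Log2 fold change from siCTL (colour and printed value) of the 10 subunits above the line and the 17 other tested subunits below it, in each knockdown. Asterisks mark called values, 4 above the line and 18 below it, with the lowest at −0.74 for SMARCD3 in siCHD4 and the highest at 0.66 for BCL7B in siGATAD2A.

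For comparison, the same calls were counted in other remodellers. Of 15 NuRD subunits, 3 were lower and 4 higher in siCARM1. With the targeted gene of each knockdown left out, 0 of 14 were lower and 4 higher in siCHD4, 1 and 3 in siHDAC2, 2 and 3 in siGATAD2A, and 2 and 2 in siKDM1A. Of 15 tested genes of the ISWI, INO80 and SRCAP remodellers, 1 was lower and 2 higher in siCARM1, 0 and 4 in siCHD4, 1 and 2 in siHDAC2, 1 and 3 in siGATAD2A, and 1 and 1 in siKDM1A. The shares of all genes tested are those given for the other subunits above. Differences between these lists were not tested.

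The genes whose levels most resembled those of the 3 widest-ranging subunits were found by Pearson's r of log2 CPM over the 12 libraries, which share their groups and normalization. For SMARCE1 they were MED21 (r = 0.940), ZNF10 (0.938) and PSMB5 (0.925). For SMARCD1 they included MED24 (0.959) and PSMC3 (0.928), and for ARID2 they included MMS22L (0.947) and TLE4 (0.946). These are among the highest values of all genes tested outside the lists above and are given as a description.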

How the data were processed

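RNA-seq was performed in 12 libraries, 2 for each of 6 siRNA groups, and groups were taken from the labels. Per Ensembl gene, unnormalized counts of read pairs were deposited by the authors in 3 columns, for both strands together and for each strand alone. The submitters' processing notes name STAR 2.7.10, CASAVA 1.4 and hg19, while the paper's methods name TopHat, HOMER and DESeq2 for its own figures. The annotation release is not given in the sources used here. Only pairs on a single gene enter such counts, which lowers genes that overlap others. The labels name more than 1 sequencing company without tying libraries to them, so no batch could be examined.

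Counts of the reverse strand (column 4 of the deposited counts) were used, as the kit is directional, and the opposite strand held 7.93% to 8.40% as many. Of 60660 identifiers, 58662 matched GENCODE release 44 mapped to GRCh37. The others, 1954 without a match (1.75% to 2.61% of counts) and 44 pseudoautosomal copies, were left out. Coding genes with a mean FPKM above 0.5 in at least 1 group were tested (12830) in edgeR 4.0.16 (R 4.3.3), with TMM factors of 0.968 to 1.01, the quasi-likelihood test, 6 group means in 1 fit and Benjamini-Hochberg adjustment within each comparison. The thresholds for a call were an adjusted p of 0.05 and a fold of 1.2. The biological coefficient of variation was 3.47%. Standard errors and intervals are from that fit. Replicates differed by more than sampling noise (chi-square per degree of freedom 1.77 to 4.97).

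The 10 subunits and all lists (other SWI/SNF subunits, NuRD subunits, ISWI, INO80 and SRCAP remodellers, markers) were chosen with earlier results of these data known. PECAM1, an endothelial marker, had no match and was not used here. Beside the 10, other subunits were named if called in 1 direction in at least 3 knockdowns, if paralogs of the 10, if lineage-restricted or if not tested, and of NuRD the targeted genes only. PHF10, BCL7A, BRD9, ACTL6A and ACTB fall outside this rule and were named after their values were seen. The other subunits called in no knockdown are named with values from alternatives only, or without values. The 3 genes with the highest Pearson r were taken for each of the 3 subunits with the widest range, and some of these genes are not reported here. FPKM between genes uses the canonical transcript length, since merged exons include long rare transcripts. Alternatives were RLE scaling, DESeq2 1.42.0, a replicate block, counts without regard to strand, genes above an FPKM of 1, no filter on low values, no fold minimum, loess offsets (span 0.3) for GC content and exonic length, only the 2 groups compared, and each library left out. Shares over canonical length were added after seeing the data.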

Additional observations from a re-analysis of the deposited data

How the results depend on the processing

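No call changed direction under any alternative tried. Of the 4 calls against siCTL, the 2 of SMARCD1 held under every alternative, and those of SMARCC2 and SMARCE1 did not. With RLE scaling, DESeq2, genes above an FPKM of 1 and only the 2 groups compared, the numbers of calls stayed within 1.5 times the reported ones. With no fold minimum, calls numbered 4 in siCARM1 and siHDAC2, 6 in siCHD4 and siKDM1A and 5 in siGATAD2A. They numbered 56 of 100 values between knockdowns and 48 of 85 among the other subunits against siCTL. Of all genes tested, 35.4% (siHDAC2) to 65.7% (siCHD4) passed the adjusted p alone against siCTL. That share was not computed between knockdowns, so the 56 are not read as a result about the subunits. Counts without regard to strand gave 1 call in siCARM1, and no filter on low values gave 0 in siHDAC2. The GC offset gave 1 in siCARM1, 0 in siCHD4, 0 in siHDAC2 and 2 in siKDM1A, and the length offset gave 3 in siCARM1, 0 in siHDAC2 and 2 in siKDM1A. The cause was not tested. Canonical lengths moved the span of group means of the SMARCA4 share from 3.86 to 4.36 percentage points and of the ARID1A share from 2.92 to 4.49.

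With each library left out in turn, the calls against siCTL numbered 0 to 0 in siCARM1, 0 to 2 in siCHD4, 0 to 1 in siHDAC2, 1 to 1 in siGATAD2A and 1 to 2 in siKDM1A. Calls between knockdowns numbered 13 to 17, those of the other subunits 15 to 22, and the spans of the shares 3.5 to 4.21 and 2.68 to 3.78 percentage points. Where this leaves a group with 1 library, that library is assumed to vary like the other groups. No pairing of the libraries by replicate number was seen. Deviations of same-numbered libraries correlated between −0.142 and 0.136 over 15 pairs of groups, with 1 of 15 above 0.1. Such low values do not show that the libraries were unpaired. With a replicate block, calls numbered 0, 1, 1, 1 and 1 in the 5 knockdowns, 14 between them and 18 among the other subunits, and 10 of 10 subunits differed among the groups. SMARCE1 in siCARM1 against siGATAD2A was then short of the fold minimum (−0.26), though the called value was the same when rounded.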
